A study of Mus musculus with 12 samples.

Results

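Expression of 9 genes of water and osmolyte handling was measured in N9 cells, an immortalised mouse microglial line. They are the water channel gene Aqp1, the carriers Slc5a3, Slc6a6, Slc6a9, Slc6a12 and Slc38a2, the transcription factor gene Nfat5, the chaperone gene Hspa4l and the kinase gene Sgk1. The 9 genes were taken by name from a count table of 54532 genes, and all 9 were among the 12766 genes that passed the filter on low counts. They were chosen by name with earlier results of these libraries known, among them the fold changes and calls of the comparisons below. Their calls therefore describe them and are not independent evidence of a response.

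The 12 RNA sequencing libraries fall into 4 groups of 3. The first group had control medium (3 mM glucose and 5 mM fructose) and no lipopolysaccharide (LPS, a bacterial cell wall component that activates microglia). The second had control medium and LPS. The other groups had LPS and a medium with 15 mM glucose or 15 mM fructose, called high glucose and high fructose below; the labels do not say whether 15 mM is the final or the added concentration. Cells stood in their medium for 18 h and LPS was given at 1 µg/ml for 6 h. Every raised-sugar culture had LPS, so an effect of the sugar without LPS cannot be told apart, and the labels name no osmotic control such as mannitol. Whether the libraries of 1 group were grown as separate cultures is not stated, and the p-values then cover only library-to-library spread, possibly a technical one.

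As background, cells that lose water to a hypertonic medium take up or make small organic osmolytes that balance the outside without disturbing proteins. NFAT5 (also called TonEBP) is the transcription factor of this response. It binds a DNA element called TonE and drives the carriers for myo-inositol (Slc5a3), taurine (Slc6a6) and betaine (Slc6a12), as well as chaperones such as Hspa4l. NFAT5 also acts in macrophages after Toll-like receptor stimulation, without a change of tonicity. Slc38a2 carries neutral amino acids and Slc6a9 carries glycine, and both take part in volume recovery. Sgk1 is a kinase induced by cell shrinkage, by serum and by glucocorticoids. Aqp1 forms a plasma membrane water pore, best known from erythrocytes, kidney tubules and the choroid plexus.

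The sequences of a pair of start regions are shown because they belong to the members called in high fructose both against control medium and against high glucose. The windows printed, 1 for each gene, differ in the NFAT5 element. RefSeq windows on GRCm38.p6 (250 bases before to 50 after a start site) were found for 8 of the 9 genes, Slc6a6 being the exception, with 19 windows in all. The TonE consensus was searched on both strands, as was its core TGGAAA, which lies inside it. TonE stood in 1 of the 19 windows, against 4.96% of 32851 windows of the same length over all genes, and the core in 3, against 21.4%. By gene, 1 of 8 had TonE, against 5.74% of 27025 genes, and 2 of 8 had the core, against 23.9%. The single TonE match was in the window of the Slc6a12 start site that lies furthest upstream (chr6:121342324-121342573 for the 250 bases printed, plus strand), with its core, in capitals, starting 75 bases before the start site. The other Slc6a12 windows, with start sites from 121342903 to 121343388, held neither TonE nor its core. The core also stood in Sgk1 windows, 105 bases before one start site on the opposite strand and 163 bases before another on the gene's strand. Neither was found in the window of Aqp1 (chr6:55336049-55336298, plus strand), which is printed for comparison. A match describes these letters only, and no binding data were used.
Slc6a12: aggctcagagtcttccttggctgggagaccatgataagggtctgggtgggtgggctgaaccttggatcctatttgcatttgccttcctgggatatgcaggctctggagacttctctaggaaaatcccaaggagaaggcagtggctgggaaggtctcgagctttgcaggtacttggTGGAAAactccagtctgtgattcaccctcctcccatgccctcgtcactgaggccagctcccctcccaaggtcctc
Aqp1: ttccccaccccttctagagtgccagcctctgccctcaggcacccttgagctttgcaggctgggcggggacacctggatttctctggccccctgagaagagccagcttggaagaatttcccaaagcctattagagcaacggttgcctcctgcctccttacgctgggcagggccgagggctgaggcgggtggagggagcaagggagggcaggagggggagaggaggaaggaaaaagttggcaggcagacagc

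Library totals were 15453776 to 17956772 counts. The microglial label held for the macrophage lineage: Csf1r had 6088 to 8027 counts per library and Tmem119 92 to 177, while P2ry12 had 1 to 6 and Aif1 2 to 9. The 12 microglia and macrophage markers summed to 1810 to 1890 CPM (counts scaled to a common library size) without LPS, 2040 to 2110 with LPS, 1880 to 1930 in high glucose and 1960 to 2020 in high fructose. Summed, the 6 fibroblast markers (Col1a1, Col1a2, Col3a1, Dcn, Lum, Pdgfra) divided the libraries in another way. Their sum was 7.6 to 19.8 CPM in 6 libraries (numbers 1 and 3 without LPS, number 1 of control medium with LPS, number 3 of high glucose, numbers 1 and 2 of high fructose) and 0.447 to 0.921 in the other 6. Col1a1, Col1a2, Col3a1 and Lum each showed this division. Dcn overlapped, with 5 counts in control-medium LPS library 1 and 10 in high-glucose library 1. Pdgfra, at 1 to 12 counts, did not follow it. Results are therefore also given without the 6 libraries of higher sum, called libraries with fibroblast RNA below after these markers. This leaves 6 libraries, 1 or 2 a group, and 2 residual degrees of freedom. High fructose then holds library 3 alone, and control medium without LPS holds library 2 alone. Results of that fit for these 2 groups, calls included, each rest on a single library. That alternative was chosen after seeing the data. In bulk RNA, a change in the number of cells of a type and a change in RNA per cell cannot be told apart.

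Under LPS in control medium, 5 of the 9 genes were called at an adjusted p below 0.05 (edgeR quasi-likelihood test, Benjamini-Hochberg over 12766 genes), against 28.8% of all genes. Slc6a12, Nfat5, Hspa4l and Sgk1 were higher (15.2% of all genes were) and Slc6a6 was lower (13.6% were). The libraries of the 2 groups did not overlap for 7 of the 9, against 44.3% of all genes. The median log2 fold change of the 9 was 0.19, against -0.00399 over all genes tested. Without the libraries with fibroblast RNA 3 of the 9 were called, all higher, and Nfat5 and Slc6a6 were not. Scaling by library totals moved the median of all genes to -0.0936 and added Slc5a3 as a lower call, and the 4 higher calls held.

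In high fructose under LPS, Aqp1, Slc6a12 and Slc38a2 were higher than in control medium with LPS, 3 of 9 against 4.91% of all genes (2.37% higher, 2.55% lower). For 5 of the 9 the groups did not overlap, against 20.4% of all genes. Among these 5, Sgk1 lay below the LPS group (66.2 to 70.6 against 71.3 to 75.2 CPM) and was not called. The median log2 fold change of the 9 was 0.19 against -0.00127. In high glucose under LPS, edgeR called 0 of 9, against 1.56% of all genes (0.587% higher, 0.971% lower), and for 2 of the 9 the groups did not overlap, against 19.2%. At an unadjusted p below 0.05 there were 3 (Slc5a3, Slc6a12 and Slc38a2), DESeq2 called 1 (Slc38a2) and limma 0. The glucose and fructose comparisons share the control libraries, so the values of both are set side by side below. Tested directly, high fructose exceeded high glucose for Aqp1 and Slc6a12, 2 of 9 against 3.72% of all genes (1.84% higher, 1.88% lower), and the groups did not overlap for these 2, against 17.9% of all genes. Without the libraries with fibroblast RNA, 2 of 9 were called in high fructose (Aqp1 and Slc6a12), and neither of these was called against high glucose.

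**Figure D1:**
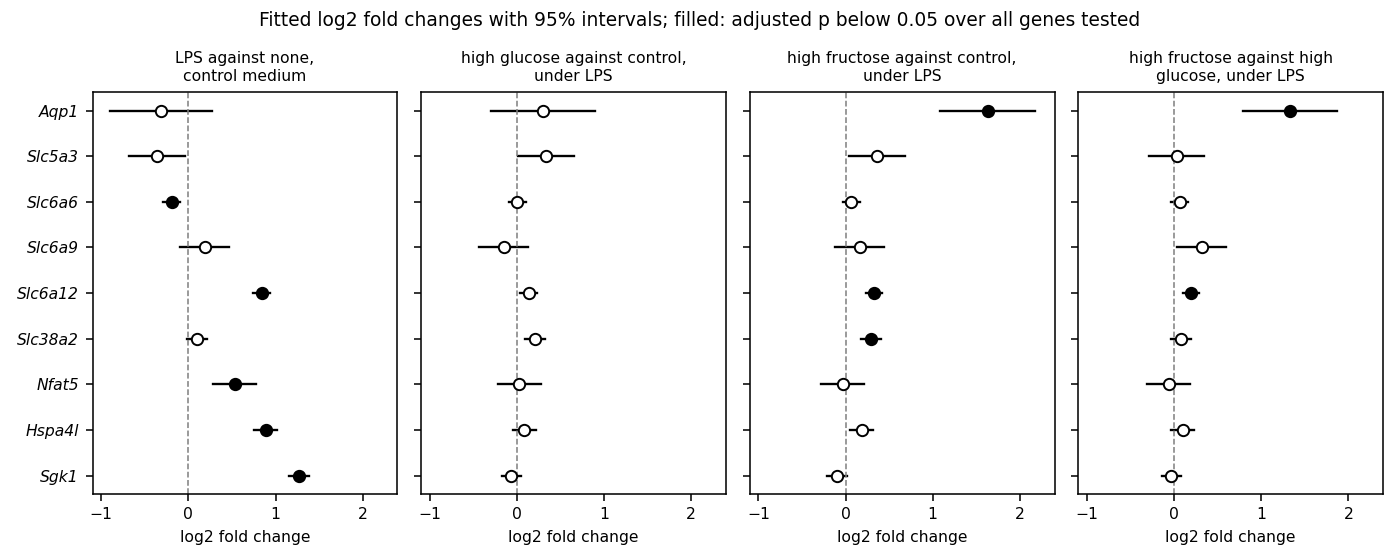
Log2 fold changes of the 9 genes (points, filled where called) with 95% confidence intervals (bars) in the 4 comparisons, from 1 edgeR fit over 12 libraries. The LPS changes of Sgk1, Hspa4l and Slc6a12 lie furthest above 0, and in the fructose comparisons Aqp1 lies furthest above 0 with the widest interval.

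Aqp1 (ENSMUSG00000004655, GRCm38 chromosome 6, 55336432 to 55348555, plus strand) was the member that differed most between the sugars. Its counts were 40, 36 and 44 without LPS, 39, 25 and 24 with LPS in control medium, 34, 46 and 26 in high glucose, and 91, 71 and 100 in high fructose. The 3 high-fructose libraries were the highest of the 12 and did not overlap any other group, while the other 3 groups overlapped one another. On the CPM scale the group means were 2.21 ± 0.177, 1.78 ± 0.554, 2.19 ± 0.59 and 5.53 ± 1.09 (SD, n = 3 each).

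The fitted rise of Aqp1 in high fructose was 3.1-fold (95% interval 2.11 to 4.54; log2 fold change 1.63 ± 0.26 SE, edgeR adjusted p = 0.000714). On the log2(FPKM + 1) scale, which understates changes of low genes, limma gave 0.88 (adjusted p = 0.00118), and 0.76 against high glucose (adjusted p = 0.00534). By p the edgeR change ranked 163 and by size 75 among the 12766 genes. Against high glucose the rise was 2.52-fold (1.73 to 3.66, edgeR adjusted p = 0.0054). High glucose against control medium gave a log2 fold change of 0.30 with an interval of -0.29 to 0.89 (edgeR adjusted p = 0.714), and LPS in control medium gave -0.32 with an interval of -0.90 to 0.27 (edgeR adjusted p = 0.448). Leaving out any 1 library of the groups compared gave 1.49 to 1.91 against control medium and 1.17 to 1.56 against high glucose, with every edgeR call held. Aqp1 was a low gene: its summed counts per group, 88 to 262, give a counting error of 10.7% to 18.5% of a single library's count.

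**Figure D2:**
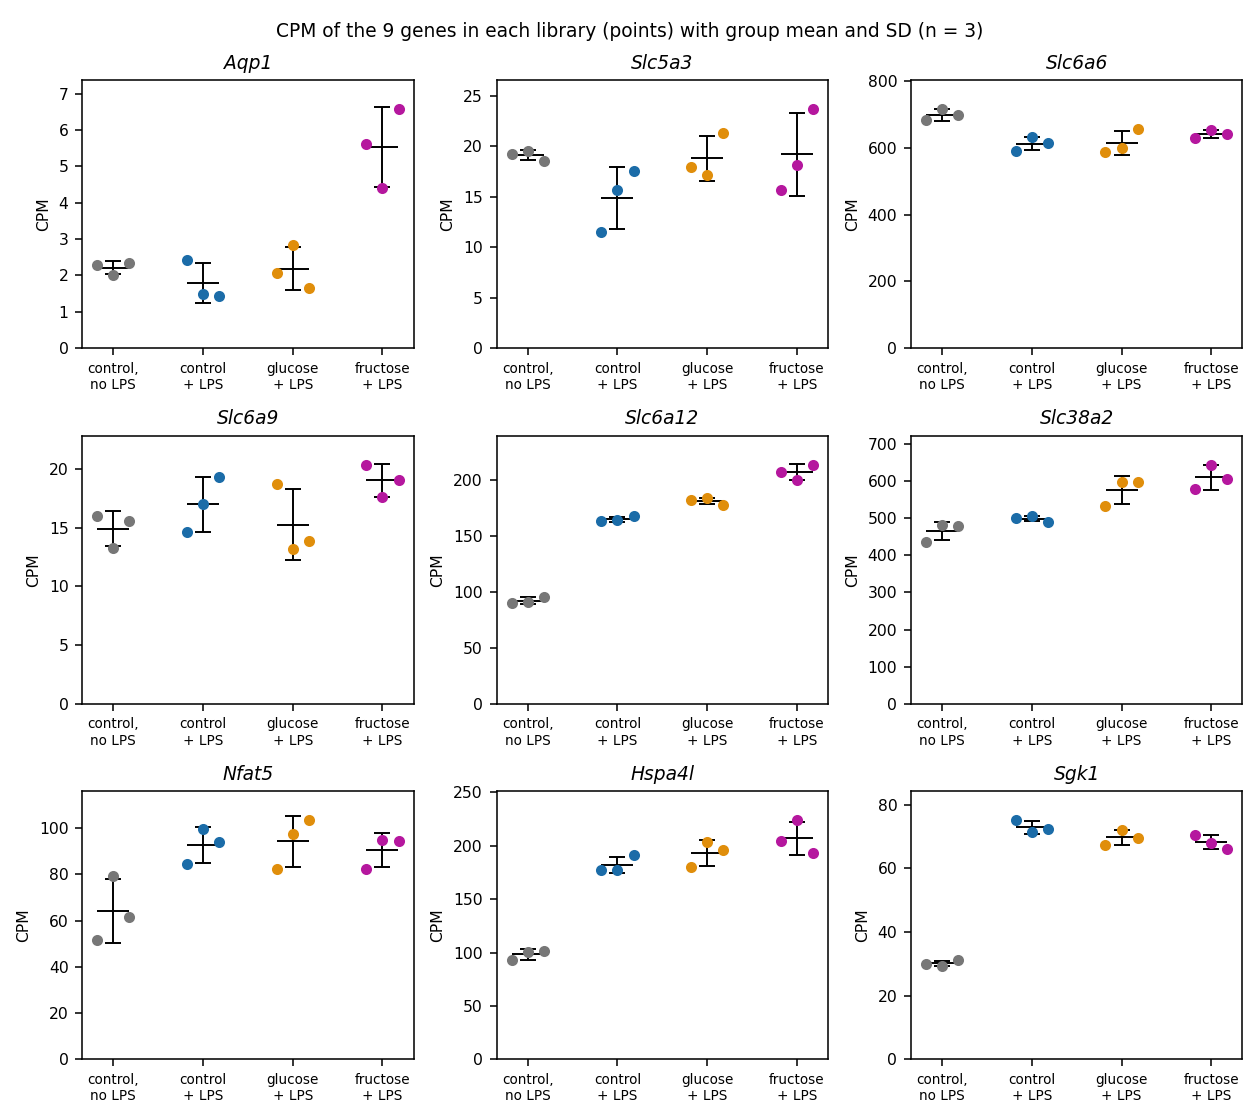
CPM of each of the 9 genes in each of the 12 libraries (points) by group, with the group mean (long line) and SD (bars), 1 panel per gene with its own scale. The Aqp1 panel shows the 3 high-fructose libraries at 4.4 to 6.58 CPM, above the other 9 at 1.43 to 2.82.

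Markers of cell types that could carry Aqp1 were read beside it. The fibroblast sum was 12.7 and 19.8 CPM in high-fructose libraries 1 and 2 and 0.921 in library 3. Aqp1 was highest, at 6.58 CPM, in library 3. Without the 6 libraries with fibroblast RNA, library 3 alone was left in high fructose. The Aqp1 change was then 2.16 on the log2 scale against control medium with LPS, and 1.42 against high glucose. The 6 choroid plexus markers summed to 7.46, 1.3 and 0.921 CPM in high-fructose libraries 1 to 3 and to 1.31 to 2.45 in control medium with LPS. Among them Folr1 had 14 to 51 counts in every library (41, 21 and 14 in high fructose), Ttr reached 79 counts in high-fructose library 1 and was at 0 in libraries 2 and 3, and Kl and Otx2 were at 0 in all 12 libraries. The 6 endothelial markers summed to 1.05 to 1.79 CPM in high fructose and 1.61 to 2.27 in control medium with LPS. Cldn5 was at 0 throughout, while Cdh5 had 2 to 26 counts and Kdr 2 to 21. Of the 8 erythroid markers, Hba-a2 was at 0 throughout and Hba-a1 had 0 to 23 counts. Their sum stayed between 0.496 and 2.37 CPM over the 12 libraries. Of the 6 astrocyte markers, Aqp4 had 0 to 2 counts, Slc1a3 0 to 4, Gfap 0 to 10 and Slc1a2 3 to 21. Aldh1l1 had 296 to 534 counts (351, 384 and 318 in high fructose, 371, 403 and 350 in control medium with LPS). The astrocyte sum was 114 to 118 CPM in high fructose, against 94.1 to 103 in control medium with LPS. It came mostly from the gap junction gene Gja1.

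**Figure D3:**
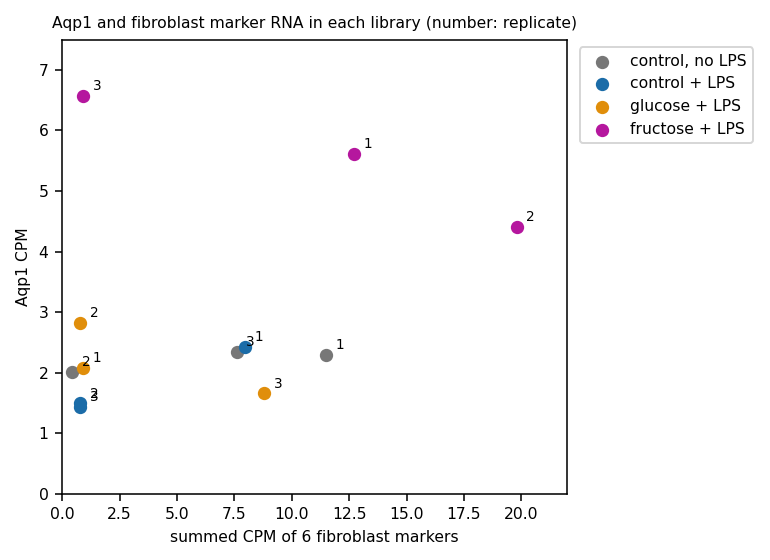
Aqp1 CPM (vertical axis) against the summed CPM of 6 fibroblast markers (horizontal axis) in the 12 libraries, coloured by group and numbered by replicate. High-fructose library 3 has the highest Aqp1, 6.58 CPM, at a fibroblast sum of 0.921, and the libraries without LPS range from 0.447 to 11.5 in the fibroblast sum at 2.01 to 2.34 CPM of Aqp1.

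Nfat5 (ENSMUSG00000003847, chromosome 8, 107293470 to 107379517, plus strand), the regulator of the programme, was at 51.7, 79.3 and 61.7 CPM without LPS and at 84.4, 99.7 and 94 CPM with LPS in control medium. The groups did not overlap, and the rise was 1.44-fold (log2 fold change 0.53 ± 0.12 SE, edgeR adjusted p = 0.00225). It was between 0.40 and 0.71 on the log2 scale, and called, with any 1 library left out, and 0.29 (edgeR adjusted p = 0.1) without the libraries with fibroblast RNA. In high glucose Nfat5 stood at 82.2, 97.7 and 104 CPM and in high fructose at 82.2, 95.1 and 94.4 CPM, and both overlapped the group with LPS. The log2 change was 0.03 (-0.22 to 0.27) for glucose and -0.03 (-0.28 to 0.21) for fructose. Library 1 was the lowest for Nfat5 in each of the 4 groups, and also had the lowest share of mitochondrial counts in each (0.518% to 0.618%). A part of that share in the Nfat5 values was not tested.

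Slc6a12 (ENSMUSG00000030109, chromosome 6, 121343076 to 121365775, plus strand), the betaine and GABA carrier BGT1, was ordered by group without overlap. Its CPM were 90.1, 90.7 and 95.5 without LPS, 163, 164 and 168 with LPS, 183, 184 and 178 in high glucose, and 208, 200 and 214 in high fructose. LPS raised it 1.79-fold (log2 fold change 0.84 ± 0.05 SE, edgeR adjusted p = 1.09e-10). High fructose raised it a further 1.26-fold (1.18 to 1.34, edgeR adjusted p = 0.000161), and high glucose gave a log2 change of 0.14 (0.04 to 0.23) that missed the threshold (edgeR adjusted p = 0.17). The difference of 0.19 ± 0.05 SE between the sugars was called (edgeR adjusted p = 0.021). It lost its call without high-glucose library 3 (edgeR adjusted p = 0.0838), without high-fructose library 1 (0.0581) or 3 (0.0958), and without the libraries with fibroblast RNA (0.361), where it was 0.22. The fructose change itself was 0.37 there (edgeR adjusted p = 0.0422).

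Slc5a3 (ENSMUSG00000089774, chromosome 16, 92058322 to 92087473, plus strand), the sodium/myo-inositol carrier SMIT1, is a textbook NFAT5 target, and no comparison called it. Its CPM were 19.2, 19.5 and 18.6 without LPS and 11.5, 15.6 and 17.5 with LPS, all 3 of the latter below the former. The log2 change was -0.36 ± 0.15 SE (edgeR adjusted p = 0.0886), and it passed the threshold with library totals for scaling (0.0306), with no filter (0.0164), with only the 2 groups fitted (0.045) or without control-medium LPS library 3 (0.0401). High glucose (17.9, 17.1 and 21.3 CPM) and high fructose (15.7, 18.2 and 23.7 CPM) overlapped the LPS group. The log2 changes were 0.33 (0.0124 to 0.655, edgeR adjusted p = 0.337) and 0.36 (0.0409 to 0.684, edgeR adjusted p = 0.248). Both intervals lay above 0, and neither change was called. The exons of Slc5a3 share 1.46% of their bases with Mrps6 and a gene model on the same strand.

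Slc6a6 (ENSMUSG00000030096, chromosome 6, 91684053 to 91759066, plus strand), the taurine carrier TauT, moved the other way from Slc6a12 under LPS. It stood at 682, 716 and 697 CPM without LPS and 591, 632 and 616 with LPS, groups that did not overlap. The log2 change was -0.19 ± 0.05 SE (edgeR adjusted p = 0.00444), held with any 1 library left out, and was -0.20 (0.0593) without the libraries with fibroblast RNA. High glucose (588, 599 and 657 CPM) gave 0.00 (-0.09 to 0.10) and high fructose (629, 655 and 642 CPM) gave 0.07 (-0.03 to 0.16) against the LPS group.

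Slc38a2 (ENSMUSG00000022462, chromosome 15, 96687392 to 96699730, minus strand), the system A amino acid carrier SNAT2, was highest in high fructose by mean. Its CPM were 437, 481 and 478 without LPS, 500, 505 and 491 with LPS, 532, 598 and 597 in high glucose, and 580, 645 and 605 in high fructose. All 6 raised-sugar libraries lay above all 6 control-medium libraries. The fructose rise was 1.22-fold (log2 fold change 0.29 ± 0.05 SE, edgeR adjusted p = 0.00287). It was called with any 1 library left out, and was 0.28 (edgeR adjusted p = 0.147) without the libraries with fibroblast RNA. For glucose the change was 0.21 ± 0.05 SE (edgeR adjusted p = 0.0717), and it was called by DESeq2 (adjusted p = 0.0173) and by edgeR without high-glucose library 1 (0.0252). The 2 sugars differed by 0.08 (-0.03 to 0.20), so Slc38a2 was not shown to respond to one more than the other.

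Slc6a9 (ENSMUSG00000028542, chromosome 4, 117834506 to 117875198, plus strand), the glycine carrier GlyT1, was called in no comparison. It ranged from 13.2 to 20.4 CPM over the 12 libraries, with means of 14.9 ± 1.47, 17 ± 2.35, 15.2 ± 3.02 and 19 ± 1.37 (SD, n = 3 each) in the order of groups above. Its values are uncertain: 30.2% of its exonic bases lie opposite exons of Gm17114, Ccdc24 and B4galt2, and no source used here states whether the counting used strand.

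Hspa4l (ENSMUSG00000025757, chromosome 3, 40744495 to 40796103, plus strand), a member of the HSP110 chaperone family also known as OSP94 for its induction by hypertonicity, had 92.6, 101 and 101 CPM without LPS and 178, 178 and 191 CPM with LPS. The rise was 1.85-fold (log2 fold change 0.89 ± 0.06 SE, edgeR adjusted p = 4.27e-09). High glucose (180, 203 and 196 CPM) overlapped the LPS group, and high fructose (204, 224 and 193 CPM) lay above it. The fructose change of 0.19 (0.05 to 0.32) missed the threshold (edgeR adjusted p = 0.116).

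Sgk1 (ENSMUSG00000019970, chromosome 10, 21882184 to 21999903, plus strand) had the largest LPS change of the 9. It was at 30, 29.4 and 31.1 CPM without LPS and 75.2, 71.3 and 72.4 CPM with LPS, a 2.42-fold rise (log2 fold change 1.27 ± 0.06 SE, edgeR adjusted p = 4.23e-12). At raised sugar it did not follow Slc6a12: the values were 67.5, 72.2 and 69.7 CPM in high glucose and 70.6, 68.1 and 66.2 CPM in high fructose. The log2 changes were -0.06 (-0.18 to 0.05) and -0.09 (-0.21 to 0.02), neither called. Sgk1 and Hspa4l kept their LPS calls without the libraries with fibroblast RNA, at 1.29 and 0.87 on the log2 scale.

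Levels can be set beside each other only per length, in FPKM (fragments per kilobase of gene, scaled to library size, as deposited). In high fructose the order of mean levels was Slc6a6 at 75.4, Slc38a2 at 68.5, Slc6a12 at 67.4, Hspa4l at 17.4, Sgk1 at 13.8, Nfat5 at 4.9, Slc6a9 at 3.67, Aqp1 at 2.09 and Slc5a3 at 1.74 FPKM. Slc38a2 (65.2 to 72.4) and Slc6a12 (65.2 to 69.6) overlapped there, as did Aqp1 (1.66 to 2.49) and Slc5a3 (1.43 to 2.15). Without LPS, Slc6a12 was at 30 FPKM, below Slc38a2 at 52.4, and Aqp1 at 0.839 was the lowest of the 9. Among the 5 carriers of the 9 genes, Slc6a6 had the highest and Slc5a3 the lowest mean FPKM in each group.

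**Figure D4:**
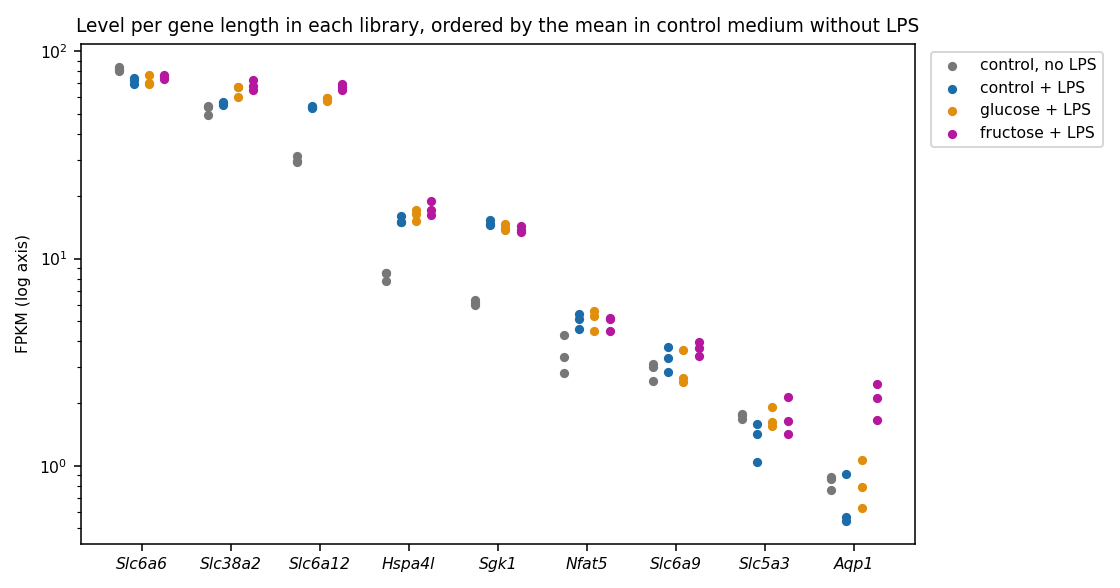
Deposited FPKM (log axis) of the 9 genes in the 12 libraries (points), coloured by group, with genes ordered by their mean without LPS. Slc6a6, Slc38a2 and Slc6a12 lie between 29.4 and 84.4 FPKM, and Aqp1 and Slc5a3 reach at most 2.49 FPKM.

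Other genes of osmotic and volume control were read from lists that were also drawn up with earlier results known; they are given as counts beside the background shares above. Of 9 other osmolyte carriers 4 were tested, and LPS raised 2 of them, Slc38a1 (253 to 317 CPM, log2 fold change 0.32) and the creatine carrier Slc6a8 (353 to 406 CPM, 0.20), while raised sugar called 0 of 4 by edgeR, DESeq2 or limma (1 at an unadjusted p below 0.05 in glucose, 0 in fructose). Of 14 osmolyte metabolism genes 11 were tested. LPS raised 2 and lowered 3, among them the phosphodiesterase genes Gdpd1 (21.5 to 40.7 CPM, 0.92) and Gdpd5 (37 to 23.8 CPM, -0.63). The GDPD5 enzyme breaks down glycerophosphocholine, itself an osmolyte. High glucose lowered 1 of the 11, Gdpd5 (-0.35, edgeR adjusted p = 0.0302), a call lost with any 1 library left out, and Gdpd5 was higher in high fructose than in high glucose (0.44, edgeR adjusted p = 0.00293; called in 6 of 6 such fits, and 0.40 with edgeR adjusted p = 0.302 without the libraries with fibroblast RNA). High fructose raised 1 of the 11, the aldose reductase gene Akr1b3, whose enzyme makes sorbitol from glucose. Akr1b3 went from 214 ± 14.7 to 260 ± 11.6 CPM (SD, n = 3 each; log2 fold change 0.28 ± 0.06 SE, edgeR adjusted p = 0.00512), was at 246 ± 11.6 CPM in high glucose (edgeR adjusted p = 0.0924), and its fructose change was 0.33 (0.0791) without the libraries with fibroblast RNA. It is named after its values were seen.

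Of 7 other chaperone genes known from hypertonic stress 5 were tested. LPS raised Hsph1 (204 to 256 CPM, log2 fold change 0.33) and Hspa1b (10.5 to 14.7 CPM, 0.48). High fructose raised Hspa1b to 21.7 CPM (0.56, edgeR adjusted p = 0.00503; 0.59 with edgeR adjusted p = 0.122 without the libraries with fibroblast RNA), a gene whose near-identical neighbour Hspa1a makes its counts uncertain. All 11 listed regulators of NFAT5 were tested, and LPS raised 2 and lowered 4. The 2 raised were Map2k3, a kinase upstream of p38 (203 to 259 CPM, 0.35), and Akap13, known as Brx (181 to 252 CPM, 0.48). High fructose raised 1 (Fyn, 0.36, edgeR adjusted p = 0.00696) and high glucose lowered 1 (Mapk14, -0.18, edgeR adjusted p = 0.0445), both named after their values were seen. The Mapk14 call was lost with any 1 library left out, and DESeq2 called 4 of the 11 in high glucose. The Fyn call in high fructose held in 6 of 6 such fits. Without the libraries with fibroblast RNA its change was 0.44, with library 3 alone in high fructose. Fyn was also among the 4 lowered by LPS (-0.21), a call that held in 0 of 6 fits with a library left out.

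Of 11 other aquaporin genes 4 were tested, and the other 7 had 0 to 2 counts in every library. Aqp3, a channel for water and glycerol, rose under LPS from 0.386 to 2.39 CPM (log2 fold change 2.61 ± 0.32 SE, edgeR adjusted p = 4.27e-06), where Aqp1 was not called. In high fructose Aqp3 was at 3.58 ± 0.543 CPM against 2.39 ± 0.459 (SD, n = 3 each; 0.58, edgeR adjusted p = 0.25), and 0 of the 4 were called by edgeR, DESeq2 or limma, with 1 at an unadjusted p below 0.05. The volume-regulated anion channel, which lets osmolytes leave swollen cells, had 4 of 5 subunits tested, and LPS raised Lrrc8d alone (73.2 to 132 CPM, 0.85, edgeR adjusted p = 3.01e-10). Raised sugar called 0 of the 4 subunits by edgeR, DESeq2 or limma, with 0 in glucose and 1 in fructose at an unadjusted p below 0.05.

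Of 21 WNK kinase and ion transport genes 16 were tested, of which LPS raised 7 and lowered 1, high glucose changed 0 by edgeR (3 at an unadjusted p below 0.05, 1 by DESeq2, 0 by limma) and high fructose raised 4, among them Kcnn4, Trpv2 and Ano6. Kcnn4, a calcium-activated potassium channel of microglia, had the same order of groups as Slc6a12: 252 ± 4.62 CPM without LPS, 390 ± 6.1 with LPS, 433 ± 12.3 in high glucose and 549 ± 12.8 in high fructose (SD, n = 3 each). Its log2 change in high fructose was 0.50 ± 0.04 SE (edgeR adjusted p = 6.52e-07), and 0.34 against high glucose (edgeR adjusted p = 6.66e-05). Without the libraries with fibroblast RNA, Kcnn4 was still called in high fructose, and Trpv2 (0.14, edgeR adjusted p = 0.676) and Ano6 (0.18, edgeR adjusted p = 0.543) were not. Trpv2 and Ano6 also lost their fructose calls without control-medium LPS library 1 or 3 or high-fructose library 2.

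The SGK1 substrates Nedd4l and Ndrg1 were called in high fructose, where Sgk1 itself was not. Of the 6 listed family members and substrates 4 were tested. Foxo3, the other tested substrate, was called in no comparison. The ubiquitin ligase gene Nedd4l was at 42.5 CPM without LPS, 68.4 with LPS, 85.9 in high glucose (log2 fold change 0.33, edgeR adjusted p = 0.012) and 94.6 in high fructose (0.47, edgeR adjusted p = 0.000103). Its glucose call was lost without control-medium LPS library 1 or 2. Ndrg1 was at 23.4, 38.9, 44.2 and 59.2 CPM in the same order (0.61 in high fructose, edgeR adjusted p = 5.51e-05), and 8.43% of its exonic bases lie opposite other genes. High glucose lowered Sgk3 (-0.35, edgeR adjusted p = 0.0376), a call lost when any 1 library was left out. Of 9 glucocorticoid-responsive genes 8 were tested, and LPS raised 2 and lowered 3: Dusp1 rose from 10.9 to 38 CPM and Fkbp5 fell from 105 to 70.2 CPM. Raised sugar called 1 of the 8, Dusp1, at 48.8 CPM in high glucose (0.36, edgeR adjusted p = 0.0243, called in 1 of 6 fits with a library left out) and 51.1 CPM in high fructose (0.43, edgeR adjusted p = 0.0022). Without the libraries with fibroblast RNA its fructose change was 0.41 (edgeR adjusted p = 0.188). Of 20 targets of ATF4, the amino acid stress factor that also drives Slc38a2, 17 were tested. LPS raised 7 and lowered 1, high glucose lowered 2, and high fructose raised 2 (Slc7a1 and Slc1a5, neither of them called with library totals for scaling) and lowered 2 (Aldh1l2 and Atf3). Atf3 fell by 0.44 on the log2 scale, from 144 to 106 CPM.

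The median log2 change under LPS, against -0.00399 over all genes, was 0.16 for the other osmolyte carriers, 0.11 for the chaperones, -0.10 for the NFAT5 regulators, 0.51 for the other aquaporins, 0.09 for the WNK and ion transport genes and 0.14 for the ATF4 targets. In high fructose, against -0.00127, the same lists had medians of -0.0077, 0.10, -0.04, 0.36, 0.04 and 0.02. Osmolyte metabolism had 0.0050 under LPS and 0.06 in high fructose, the anion channel subunits 0.13 and 0.07, the SGK family and substrates 0.35 and 0.25, and the glucocorticoid-responsive genes 0.04 and 0.16. Without the libraries with fibroblast RNA the LPS calls were 1 higher and 1 lower in osmolyte metabolism, 2 and 1 among the NFAT5 regulators, 3 and 0 among the WNK and ion transport genes, 1 and 1 among the glucocorticoid-responsive genes, and 4 and 0 among the ATF4 targets. In high fructose Kcnn4, Nedd4l and Ndrg1 were then still called, as was the fall of Atf3. With library totals for scaling, LPS raised 4 and lowered 2 of the WNK and ion transport genes and raised 1 of the other osmolyte carriers, Slc6a8 missing the threshold (edgeR adjusted p = 0.0599). Among the ATF4 targets raised by LPS, Atf4 itself (edgeR adjusted p = 0.48) and Slc7a1 (0.0785) also missed it with that scaling. The LPS call of Atf4 held in 0 of 6 fits with a library left out, and that of Chac1 in 2 of 6.

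**Figure D5:**
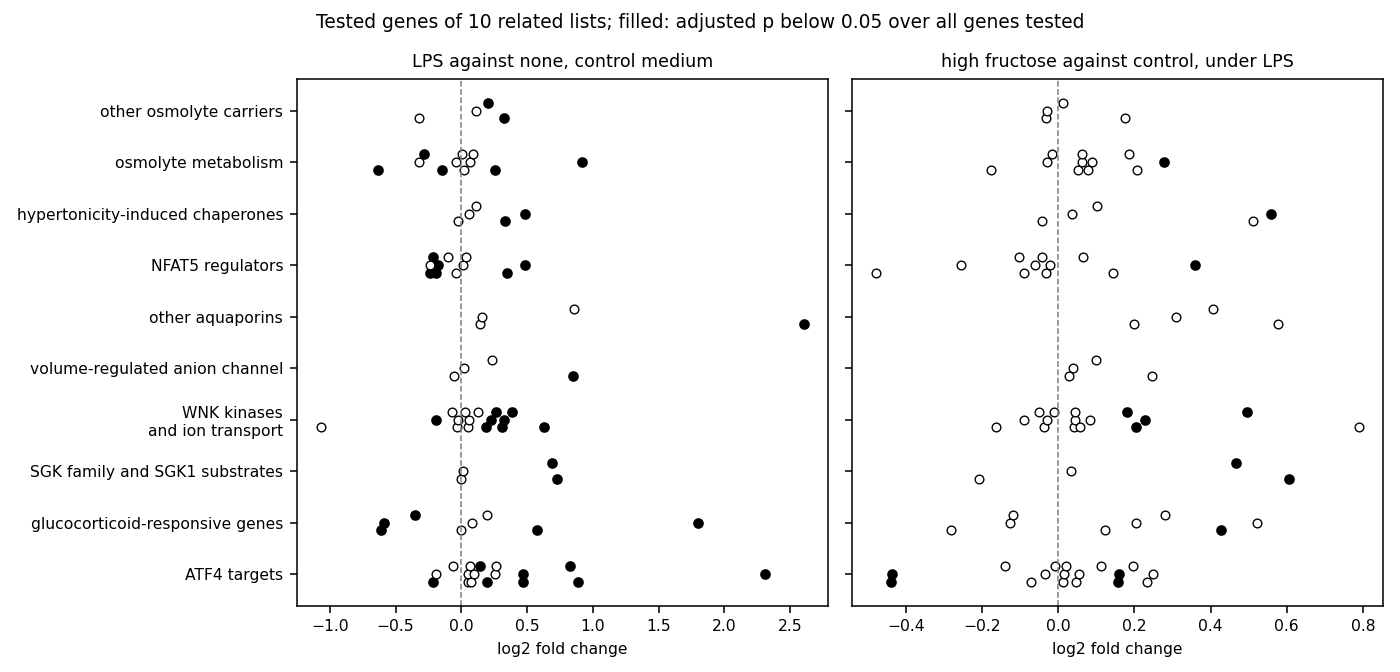
Log2 fold changes (horizontal axis) of the tested genes of the 10 related lists (1 row per list, 1 point per gene, filled where called), for LPS in control medium (left) and high fructose under LPS (right); the 2 panels have different horizontal ranges. On the left Aqp3 at 2.61 and Slc7a11 at 2.31 lie furthest to the right, and on the right the called genes range from -0.44 (Atf3) to 0.61 (Ndrg1).

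By Pearson correlation over the 12 libraries, a description in which libraries of a group share their treatment, the protein-coding genes most like Aqp1 were Cav2 (r = 0.921), Klc1 (0.882), Cd300lb (0.882), Pacsin2 (0.882) and Atp6v1b2 (0.879). Because they were picked for likeness to Aqp1, which was highest in high fructose, their fructose changes follow in part from that choice. They are not independent evidence. Cav2, a caveolin, went from 35.9 to 53.4 CPM in high fructose (log2 fold change 0.57 ± 0.07 SE). Klc1, Cd300lb and Pacsin2 changed by 0.30, 0.32 and 0.21. Without the libraries with fibroblast RNA these 4 changes were 0.54, 0.37, 0.33 and 0.25, with library 3 alone in high fructose. Atp6v1b2, a subunit of the proton pump, changed by 0.10 (edgeR adjusted p = 0.267). Among the 9 members the closest pairs over the 12 libraries were Slc6a12 and Hspa4l (r = 0.977), Hspa4l and Sgk1 (0.966) and Slc6a12 and Sgk1 (0.943).

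The 6 tested genes within 500 kb of Aqp1 had log2 changes in high fructose from -0.89 (Nod1, edgeR adjusted p = 0.162) to 0.22 (Mindy4, 0.829), and Mindy4 lies 16210 bases away. Of the 7 tested genes within 500 kb of Slc6a12, Bid and Usp18 were called both under LPS (0.59 and 5.49 on the log2 scale) and in high fructose (-0.20 and -0.99), where Slc6a12 moved the other way. Slc6a13, a GABA carrier whose gene lies 5343 bases from Slc6a12, was not called under LPS (-0.32, edgeR adjusted p = 0.145) or in high fructose (0.17, 0.695). Aqp1, Slc6a6 and Slc6a12 all lie on chromosome 6, and their changes under LPS and fructose differed as given above.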

How the data were processed

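RNA was sequenced in 12 N9 libraries, and the labels put 3 in each of 4 groups. Raw counts per gene, deposited by the authors, came from featureCounts 1.5.0-p3 and mm10 per the submitters' processing notes, and the authors also deposited FPKM values. Each deposited FPKM equalled the count over gene length and 1 constant per library, to within 1.18e-07%. No source used here gives the aligner, annotation release or strand setting. Library totals of 15453776 to 17956772 counts set the counting error.

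The main test was edgeR 4.0.16 (R 4.3.3) with default filterByExpr (12766 of 54532 genes), TMM scaling, 1 quasi-likelihood model over 12 libraries with 1 coefficient per group (8 residual degrees of freedom), and Benjamini-Hochberg adjustment within each of 4 contrasts, called below 0.05. Intervals are 95% from the fit. CPM used the scaled library sizes. The scripts were tested on simulated counts. Alternatives were upper-quartile and total-count scaling, no filter, a replicate block, DESeq2 1.42.0, limma 3.58.1 on log2(FPKM + 1), the 2 groups compared alone, and each library left out. Leaving out the libraries with fibroblast RNA (marker sum above 2 CPM) was added after seeing the data.

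The members and gene lists were chosen with earlier results of these data known, so no list was tested. All 9 members are named, with up to 2 genes per list by smallest p, the 5 protein-coding genes most correlated with Aqp1 (log2 CPM, prior count 2), and genes of lists with 5 or fewer calls, named after their values were seen. Atf4 and Chac1 are named for the limits of their LPS calls, also after their values were seen. Antisense and shared exons were read from GENCODE M21 on GRCm38, transcript matches came from BLAST 2.17.0+, and promoter windows from RefSeq on GRCm38.p6.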

Additional observations from a re-analysis of the deposited data

How the results depend on the processing

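Whether the replicate numbers pair the libraries was not settled by the values. A correlation of deviations above 0.1 was found in 4 of 18 same-numbered pairs (range -0.194 to 0.243). Pairs with different numbers ranged from -0.231 to 0.185. Of the 12 libraries, 6 correlated best with their own number. Library 1 was the lowest in each group for Nfat5 and for the mitochondrial share, and whether the numbers mark a batch was not tested. The replicate block called 391 genes in high glucose and 735 between the sugars, whereas the fit without it called 199 and 475. Among the members it added Slc5a3 under LPS (edgeR adjusted p = 0.0217), Slc38a2 in high glucose (0.00648, making 1 call) and Hspa4l in high fructose (0.038), and no other member call changed.

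In high glucose, all genes called were 427 with no filter, 329 by DESeq2, 126 by limma and 70 to 178 with a library left out. Member calls there were 1 with no filter, 1 by DESeq2 and 0 to 1 with a library left out. Between the sugars, a fit of only the 2 groups called 236 genes and 1 member (Aqp1), and leaving out a library called 1 to 2 members. Without the libraries with fibroblast RNA, which also leaves fewer samples, all genes called were 1917 for LPS, 23 for glucose, 171 for fructose and 111 between the sugars, with 3, 0, 2 and 0 members.

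Over the alternatives other than the fibroblast one, 441 values of single members kept their direction and side of the threshold, 10 gained a call, 4 lost one and 13 changed sign. Those that changed sign were uncalled, and in the main fit they lay between -0.06 and 0.03 on the log2 scale. For Slc6a6 in high glucose the log2 change was -0.001039 with library totals, -0.001537 by limma, -0.0468 to 0.03425 with a library left out and -0.07134 without the libraries with fibroblast RNA. For Nfat5 in high glucose it was -0.04365 to 0.1174 with a library left out and -0.1063 without the libraries with fibroblast RNA. With a library left out, Nfat5 in high fructose ranged from -0.09698 to 0.03142. Between the sugars Nfat5 ranged from -0.1514 to 0.00975 with a library left out and was 0.06733 without the libraries with fibroblast RNA, and Slc5a3 ranged from -0.1496 to 0.1551 with a library left out. The cause of these shifts was not tested. At 24 to 100 counts, Aqp1 is the member that depth limits most.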
